A study of Mus musculus with 16 samples.

Results

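Tumors of Th-MYCN mice were compared with sympathetic ganglia that carried no transgene, across all genes of the RNA-Seq table. The comparison used 11 of the 16 libraries in the series, 4 tumors and 7 ganglia, and these were chosen by tissue and MYCN genotype in the labels and column headers, not by any measured value. The tumors were from mice homozygous for Th-MYCN that had both Runx1t1 alleles intact. The ganglia were celiac ganglia of 2-week-old mice labelled MYCN wild-type, 4 with wild-type Runx1t1 (wild-type ganglia) and 3 that were Runx1t1 heterozygotes with 1 functional allele (het ganglia). In the Th-MYCN line the tyrosine hydroxylase (Th) promoter drives human MYCN in cells of the neural crest lineage, on a 129/SvJ background, and the Runx1t1 heterozygotes carry an insertional knock-out crossed in from another stock. The age of the tumor-bearing mice is not given in the labels, so that tumor, transgene and age cannot be told apart on the tumor side. No source used here says whether each library came from 1 animal, and the p-values measure the spread between libraries. Both sides are bulk tissue, in which fewer cells of a type and less RNA per cell cannot be told apart.

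Celiac ganglia belong to the sympathetic nervous system, whose mature neurons make noradrenaline, depend on nerve growth factor and are excited through nicotinic receptors. Neuroblastoma arises from immature cells of this lineage. Such cells share the transcription factors that set up the sympathetic fate (Hand2, Gata3 and Isl1 among them) and keep a capacity to divide that mature neurons have lost. MYC proteins pair with MAX, bind the E-box and are known for raising genes of ribosome production, nucleotide supply and cell division.

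Sequencing depth was 27096032 to 38618757 counts per tumor (median 33869940) and 10692299 to 36337191 per ganglion (median 27314783), with 3 ganglia under 20000000. The nuclear ribosomal RNA gene Rn45s took 8.57% to 12.8% of the counts in tumors and 2.15% to 5.64% in ganglia. Replicate 2 of the wild-type ganglia stood apart: its summed lymphocyte markers were at 814 CPM (reads scaled to library size, by the TMM method), against 2.27 to 7.97 in the other 6 ganglia, its summed macrophage markers were at 1696 CPM and its mitosis genes at 1135 CPM. Replicate 3 of the tumors held 6813 CPM of liver genes, against 2.02 to 73.1 in the other tumors. For many of the results that lean on either library, though not for all, values without it are given as well. Only mouse genes are listed in the table, so the level of the human transgene was not measured.

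Of 16665 genes tested, 10300 differed between tumors and ganglia at an adjusted p under 0.05 (61.8%), with 5100 higher (30.6%) and 5200 lower (31.2%) in tumors. The log2 fold change was above 1 for 3224 and above 3 for 861 of the higher genes, and below −1 for 3892 and below −3 for 1335 of the lower genes. In 3781 genes (22.7%) every tumor lay above every ganglion, and in 3576 (21.5%) every tumor lay below. The median log2 fold change of all genes was −0.06, and −0.18 when libraries were scaled by total counts only. For a member list, these shares and this median are the background to read against. Both Runx1t1 genotypes were on the ganglion side by the choice of libraries. Between het and wild-type ganglia no gene passed (edgeR, 687 at an unadjusted p under 0.05, and 5 passed with DESeq2). With 3 and 4 libraries this does not show that the genotypes are alike. Against the 4 wild-type ganglia alone, which match the tumors in Runx1t1 genotype, 9608 genes passed, and 10755 passed without wild-type ganglion 2.

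**Figure D1:**
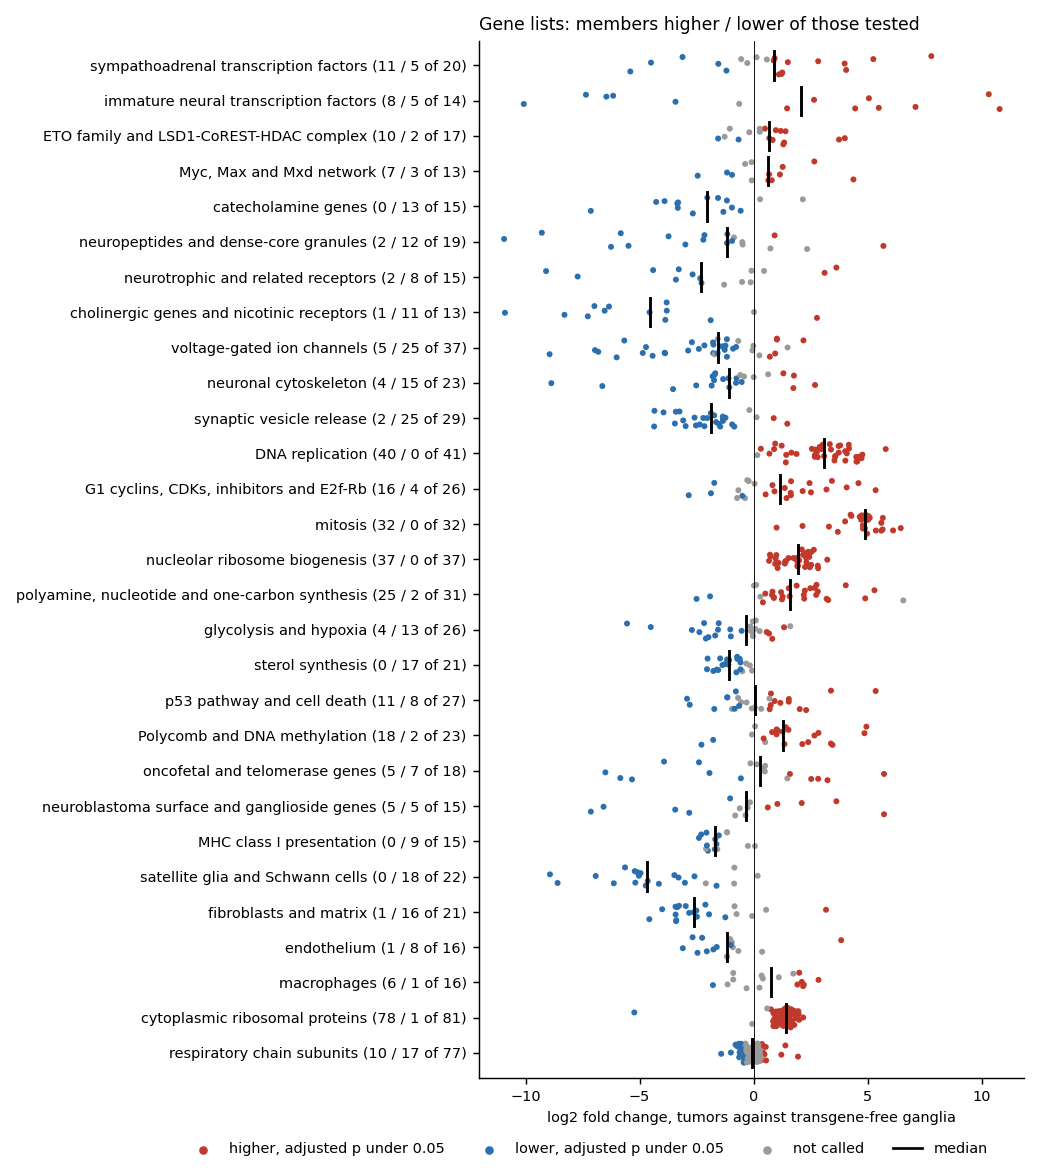
Log2 fold change (x axis, tumors against 7 transgene-free ganglia) of each tested member of 29 gene lists. Red points passed as higher, blue as lower, gray did not pass, and black bars are list medians. All 32 mitosis members lie to the right of 0 and 25 of 29 synaptic release members passed as lower.

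Transcription factors of the sympathetic lineage did not move as a block. Of 20 tested, 11 were higher and 5 lower in tumors, and the median log2 fold change was 0.90. Phox2a, a homeodomain factor of autonomic neurons, was lower, with 42.4, 44.9, 45.5 and 194 CPM in tumors 1 to 4 against 116 to 363 (median 244) CPM (log2 fold change −1.55, SE 0.44, edgeR adjusted p = 0.00717), and tumor 4 lay within the range of the ganglia. Without tumor 4 its log2 fold change was −2.43. Hand2, needed for the noradrenergic fate, was at 858, 539, 559.7 and 490.3 CPM and 368 to 992 CPM and did not pass (log2 fold change −0.28, edgeR adjusted p = 0.306). Its relative Hand1 was at 0.140 to 19.1 CPM in tumors and 152 to 406 CPM in ganglia (log2 fold change −5.41, SE 0.89, edgeR adjusted p = 0.000126; −6.70 without tumor 1). Gata3 and Isl1, both required for sympathetic differentiation, were higher in tumors with log2 fold changes of 0.88 and 1.26. The list member with the largest increase was Insm1, a zinc finger factor of neuroendocrine progenitors, at 182, 170.5, 129 and 104 CPM in tumors against 0.0291 to 3.21 (median 0.320) CPM (log2 fold change 7.80, SE 1.17, edgeR adjusted p = 5.85e-05; 8.54 without wild-type ganglion 2). All 4 tumors lay above all ganglia for Gata3 and Insm1. Ganglia of the same genotype as the tumors, which are not on either side of this comparison, had 209, 1.49 and 34.1 CPM of Insm1 in replicates 1, 3 and 4, and the difference was not tested.

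A second list held 24 factors of immature neurons elsewhere in the nervous system. Only 14 had enough counts to be tested, 8 of them higher and 5 lower, with a median of 2.06. The filter did not ask for counts on both sides, so a gene near 0 on one side could enter. With at least 10 counts required in every library, 2 were higher and 0 lower. Neurod1, a basic helix-loop-helix factor of newborn neurons, was at 29.5, 4.77, 10.8 and 35.1 CPM in tumors and at 3 counts or fewer in every ganglion. It was at least 156-fold higher when the floor is 3 counts at the mean library size of the ganglia (0.129 CPM). The other bounds were set in the same way, with 0.0962 CPM as the floor of the tumors. In wild-type ganglion 2, the smallest library, 3 counts are 0.260 CPM, so floors set library by library would give lower bounds. Nhlh2, of the same class, was at 5.20, 0.367, 1.11 and 5.56 CPM and at 0 to 0.320 CPM in ganglia (edgeR adjusted p = 0.00111). Nhlh1 was too low to test, with at most 1.97 CPM in a tumor and 0 in all ganglia. Sox3, by contrast, was at 0 in all 4 tumors and at 2.76 to 10.4 (median 4.07) CPM in ganglia, at least 57.9-fold lower in tumors.

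The machinery of the mature neuron was lower in nearly every list. For catecholamine genes 13 of 15 fell and none rose, with a median of −2.03. Slc6a2, the noradrenaline transporter, was at 63.2, 7.48, 9.81 and 3.79 CPM in tumors and 1054 to 4553 (median 3321) CPM in ganglia (log2 fold change −7.14, SE 0.90, edgeR adjusted p = 1.43e-05). Dbh, the enzyme that makes noradrenaline, was at 290.1, 86.3, 86.1 and 52.5 CPM, against 1115 to 3474 (median 2552) CPM (log2 fold change −4.27, SE 0.52, edgeR adjusted p = 1.12e-05). Tumor 1 was the highest for both genes, and without it the log2 fold changes were −8.72 and −5.05. Th, whose promoter drives the transgene in this line, fell less, from 552 to 1240.3 (median 1054) CPM to 152, 495, 218 and 485 CPM in tumors 1 to 4 (log2 fold change −1.56, SE 0.37, edgeR adjusted p = 0.0023), and no tumor reached the lowest ganglion. Ddc, the next enzyme of the pathway, had a log2 fold change of −0.95 and the vesicular transporter Slc18a2 one of −3.32. Pnmt, which makes adrenaline, did not pass (log2 fold change 2.16, edgeR adjusted p = 0.109).

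Most receptors for neurotrophic factors that passed were lower. Ngfr, the neurotrophin receptor p75, was at 1.94, 4.86, 3.00 and 1.57 CPM in tumors, against 515 to 2503 (median 1790.1) CPM in ganglia (log2 fold change −9.10, SE 0.60, edgeR adjusted p = 2.41e-07). Ret, the receptor of the GDNF family, was lower as well (12.5 to 92.2 against 158 to 653 CPM, log2 fold change −3.28). Alk, a receptor tyrosine kinase known as a neuroblastoma oncogene, went up: 259, 93.5, 116 and 136 CPM in tumors and 3.21 to 22.1 (median 13.6) CPM in ganglia (log2 fold change 3.63, SE 0.57, edgeR adjusted p = 8.1e-05). In the whole list of 15, 8 were lower and 2 higher, Alk and the ligand midkine (Mdk), with a median of −2.29. Ntrk3, Gfra1, Gfra3, Gfra4 and Sort1 did not pass.

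**Figure D2:**
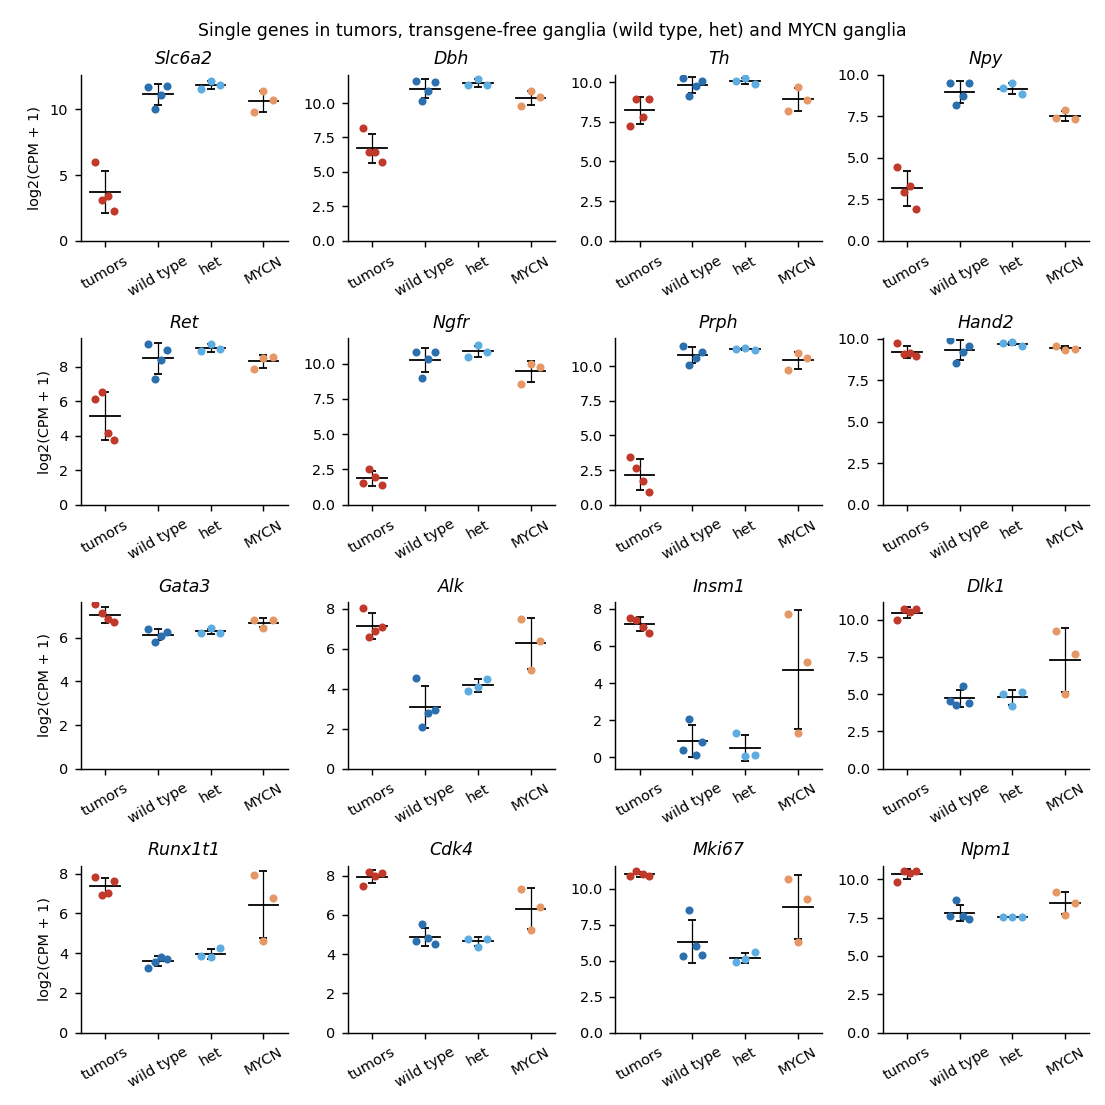
Log2(CPM + 1) of 16 genes in each library (points), with mean and SD (bars), in tumors (n = 4), wild-type (n = 4) and het (n = 3) transgene-free ganglia, and MYCN ganglia with wild-type Runx1t1 (n = 3). Slc6a2, Ngfr and Prph are low in all tumors, Hand2 overlaps, and Insm1, Dlk1, Runx1t1, Cdk4 and Mki67 are high in all tumors.

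Neuropeptide and granule genes were lower in 12 of 19 and higher in 2. Npy, the main peptide transmitter of sympathetic neurons, was at 21.0, 6.58, 9.03 and 2.72 CPM in tumors and 285 to 728 (median 585) CPM in ganglia (log2 fold change −5.83, SE 0.56, edgeR adjusted p = 2.15e-06). Pcsk1, a protease that matures prohormones, was at 3 counts or fewer in every tumor and at 29.3 to 73.8 CPM in ganglia, at least 592-fold lower. Chromogranins did not follow. Chga, a structural protein of granules, was at 237 to 687 CPM and 80.6 to 391.7 CPM and did not pass (edgeR adjusted p = 0.0741). Chgb was at 419 to 1683 CPM in tumors and 239 to 860.5 CPM in ganglia (log2 fold change 0.92, edgeR adjusted p = 0.0387), a call lost in 5 of the 11 fits that left out 1 library. Cartpt, a peptide of some autonomic neurons, was at 378, 13.9, 23.4 and 45.1 CPM in tumors and 0.260 to 5.58 (median 1.92) CPM in ganglia (log2 fold change 5.70, SE 1.06, edgeR adjusted p = 0.000354). Tumor 1 was far above the others, and without it the log2 fold change was 3.63 for Cartpt and −6.51 for Npy.

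Of 13 cholinergic genes and nicotinic receptors tested 11 were lower and 1 higher, with a median of −4.56. Chrna3 and Chrnb4 encode the nicotinic receptor of ganglionic transmission. Chrna3 was at 56.9, 16.2, 20.1 and 23.7 CPM in tumors, against 151 to 589.7 (median 449) CPM (log2 fold change −3.81, SE 0.45, edgeR adjusted p = 8.73e-06), and Chrnb4 had a log2 fold change of −6.98. Chrna4, a subunit of brain nicotinic receptors, was the single member that rose (1.07 to 6.99 against 0.0867 to 0.988 CPM, log2 fold change 2.78). Of 37 voltage-gated ion channels 25 were lower and 5 higher. Scn9a, a sodium channel of peripheral neurons, was at 62.5 to 131 CPM in tumors and 152 to 489 CPM in ganglia (log2 fold change −1.77), and Scn11a was at the floor in all tumors and at 6.21 to 14.9 CPM in ganglia. Cacna1d, an L-type calcium channel, was higher, at 91.9, 90.4, 101 and 107 CPM against 18.8 to 24.2 (median 21.99) CPM (log2 fold change 2.19, SE 0.21, edgeR adjusted p = 2.12e-06).

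Of 29 genes of synaptic vesicle release 25 fell and 2 rose (1 without tumor 2 or het ganglion 3), with a median of −1.87. Syt1, the calcium sensor of release, was at 63.6, 87.7, 89.4 and 143 CPM in tumors and 607 to 2189.6 (median 1606) CPM in ganglia (log2 fold change −3.95, SE 0.38, edgeR adjusted p = 2.18e-06). Snap25, part of the fusion complex, had a smaller log2 fold change of −1.35, and Syn1, which tethers vesicles, one of −2.03. Among 23 cytoskeletal genes 15 were lower and 4 higher. Prph (peripherin), the intermediate filament of peripheral neurons, was at 9.78, 5.20, 2.28 and 0.842 CPM in tumors and 1086 to 2825 (median 2329) CPM in ganglia (log2 fold change −8.87, SE 0.72, edgeR adjusted p = 7.85e-07; −9.57 without tumor 1). Other neurofilaments did not behave alike. Nefm was higher in tumors, at 8261, 1669, 2861 and 2176 CPM against 622 to 1438 (median 1131) CPM (log2 fold change 1.75, SE 0.42, edgeR adjusted p = 0.00259), Nefl did not pass (log2 fold change 0.64, edgeR adjusted p = 0.136) and Nefh was lower (−0.75). Without tumor 1 the log2 fold change of Nefm was 1.00. Dcx, a microtubule protein of migrating immature neurons, rose from 29.0 to 73.0 (median 54.4) CPM to 471, 299, 304 and 324 CPM (log2 fold change 2.70, SE 0.35, edgeR adjusted p = 1.9e-05).

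By the rule for the largest changes, the 15 genes lower in tumors were, from the largest, Vwc2l, Kctd16, A330050F15Rik, Hcrtr1, Pcsk1, Slc5a7, Htr3b, Rxfp1, Lingo2, Cyp2j12, Sox3, Cckar, Cntn5, Cntn3 and Dkk1. They include receptors for orexin (Hcrtr1), serotonin (Htr3b), relaxin (Rxfp1) and cholecystokinin (Cckar), the choline transporter Slc5a7 and the adhesion molecules Cntn3 and Cntn5. Htr3b was at 36.9 to 117 CPM in ganglia and at the floor of 3 counts in every tumor, at least 696-fold lower. Cckar was at 26.7 to 66.3 CPM in ganglia and at least 452-fold lower in tumors, and for Vwc2l the bound was 417-fold. Of these 15 genes, 13 were at or under the floor in all tumors. Over all genes that held for 305 lower genes, and 93 higher genes were at the floor in all ganglia. In TPM, a unit that divides by transcript length and scales each library to the same total, the most abundant lower genes were Tuba1a, an alpha tubulin (6967 TPM in ganglia and 2431 TPM in tumors as means), Npy (4065 and 50.8 TPM), Sncg, gamma-synuclein (3835 and 27.8 TPM), the nuclear RNA Malat1 (3689.9 and 1034 TPM) and Uchl1, a neuronal deubiquitinase (3562 and 1024 TPM).

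The 15 genes with the largest increases were Pou3f3, Neurod1, Gm6880, Igfbpl1, Tbr1, Emx2, Xlr3c, Neurod6, Adarb2, Cbln2, Dusp9, Ascl2, Cdc20b, Cd5l and Peg10. Pou3f3, Neurod1, Neurod6, Tbr1 and Emx2 encode transcription factors best known from the developing brain. Emx2 was at 26.7, 22.6, 20.02 and 21.5 CPM in tumors and at most 0.400 CPM in a ganglion (log2 fold change 9.27, SE 1.15, edgeR adjusted p = 1.32e-05; 10.33 without het ganglion 1), and Cbln2, a synapse organizer, was at 65.5, 59.7, 42.1 and 62.4 CPM against at most 0.434 CPM (log2 fold change 8.15, SE 0.93, edgeR adjusted p = 7.07e-06). Igfbpl1, a relative of the insulin-like growth factor binding proteins, was at 28.4, 17.2, 38.1 and 84.9 CPM and at the floor in all ganglia, at least 327-fold higher. Some of these means rest on 1 tumor. Tbr1 was at 0.544, 0.876, 0.250 and 71.1 CPM in tumors 1 to 4, at least 141-fold higher on the mean, and without tumor 4 its fitted log2 fold change was 4.56 in place of 9.54. Pou3f3 was at 35.7, 0.282, 2.28 and 0.168 CPM, at least 74.7-fold higher on the mean, and without tumor 1 its fitted log2 fold change was 7.47 in place of 10.87. Both genes were at the floor in all ganglia, where a fitted value depends on the prior count. Dusp9, a phosphatase of MAP kinases, was at 18.4, 122, 105 and 76.4 CPM, against at most 0.954 CPM in ganglia. Cd5l, which is secreted by macrophages, was at 15.1, 165, 138 and 68.0 CPM. Xlr3c belongs to a family of near-identical copies on the X chromosome, between which reads are shared out, so that its level is uncertain.

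Peg10, an imprinted gene derived from a retrotransposon, was at 252, 10259, 9909 and 11613 CPM in tumors 1 to 4 and 19.4 to 43.9 (median 34.9) CPM in ganglia (log2 fold change 7.87, SE 0.88, edgeR adjusted p = 5.87e-06). Tumor 1 was above every ganglion but held far less than the other 3 tumors. Dlk1, an imprinted ligand-like membrane protein of neuroendocrine precursors, was uniform, at 983, 1649, 1445 and 1679 CPM in tumors and 17.4 to 46.1 (median 22.7) CPM in ganglia (log2 fold change 5.72, SE 0.61, edgeR adjusted p = 4.28e-06). In the list of 18 tested oncofetal and telomerase genes, 5 rose (Dlk1, Lin28b, Tert, Dkc1 and Hmga1) and 7 fell. These shares, 27.8% and 38.9%, were near the 30.6% and 31.2% of all genes tested. The lower count was 4 against wild-type ganglia only and 5 in libraries over 20000000 counts. It was 3 with at least 10 counts in every library. Lin28b, an RNA-binding protein that blocks let-7 microRNAs, was at 25.1, 44.1, 46.1 and 44.9 CPM in tumors and 1.39 to 7.76 (median 4.08) CPM in ganglia (log2 fold change 3.24, SE 0.39, edgeR adjusted p = 1.11e-05). Tert, the catalytic subunit of telomerase, was at 17.7, 12.4, 15.1 and 16.1 CPM, against 1.37 to 2.66 (median 2.32) CPM (log2 fold change 2.83, SE 0.38, edgeR adjusted p = 2.13e-05). Igf2bp1 was near the floor on both sides, with at most 0.0282 CPM in a tumor and 0.0867 to 1.27 CPM in ganglia, and Hmga2, at most 0.401 CPM in any library, did not pass (edgeR adjusted p = 0.903).

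Cell division genes were shifted toward tumors. All 32 mitosis genes were higher in tumors, with a median of 4.89, and in all 32 every tumor lay above every ganglion. Their summed level was 7281 to 8845 CPM in tumors and 209.6 to 1135 CPM in ganglia, with wild-type ganglion 2 at the top of the second range and the other 6 ganglia at 209.6 to 317 CPM. Mki67, the proliferation marker Ki-67, was at 1889, 2435, 2063 and 1931 CPM in tumors and 28.5 to 368 (median 40.9) CPM in ganglia (log2 fold change 4.79, SE 0.76, edgeR adjusted p = 9.56e-05). Without wild-type ganglion 2, the log2 fold change was 5.64. Ccnb1, the mitotic cyclin, was at 143, 202, 150.3 and 191 CPM against 0.901 to 12.6 (median 1.89) CPM (log2 fold change 6.12, SE 0.72, edgeR adjusted p = 8.91e-06; 6.87 without that ganglion). Plk1 and Aurka, kinases of the spindle, had log2 fold changes of 5.66 and 4.66, and Top2a, the topoisomerase of dividing cells, one of 4.90. Without wild-type ganglion 2 those of Plk1 and Top2a were 6.37 and 5.61. Of 41 DNA replication genes 40 were higher and none lower, with a median of 3.10. Orc4, an origin recognition subunit, was the member that did not pass. Mcm2, a subunit of the replicative helicase, was at 296, 458, 357 and 419.6 CPM in tumors and 9.81 to 49.7 (median 12.6) CPM in ganglia (log2 fold change 4.51, SE 0.54, edgeR adjusted p = 9.86e-06), and Pcna, the sliding clamp, was at 147, 176, 138 and 165 CPM against 16.3 to 45.6 (median 18.9) CPM (log2 fold change 2.82, SE 0.33, edgeR adjusted p = 7.82e-06). Both counts were the same without wild-type ganglion 2.

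Regulators of G1 were more mixed: 16 of 26 were higher and 4 lower, with a median of 1.14. Cdk4 was at 174, 292, 256 and 282 CPM in tumors and 19.8 to 46.1 (median 26.7) CPM in ganglia (log2 fold change 3.20, SE 0.32, edgeR adjusted p = 2.78e-06). Its paralog Cdk6 was lower, at 2.45, 2.57, 3.10 and 1.99 CPM against 15.01 to 24.1 (median 16.5) CPM (log2 fold change −2.84, SE 0.28, edgeR adjusted p = 2.42e-06), and no library of one side reached the other for either kinase. Ccnd1, the D-type cyclin that partners both, was at 1193, 1012, 647 and 645 CPM against 146 to 236 (median 196) CPM (log2 fold change 2.15, SE 0.32, edgeR adjusted p = 5.34e-05). E2f1, a transcription factor of S-phase genes, was at 54.5, 68.5, 62.8 and 70.9 CPM against 3.70 to 9.65 (median 4.40) CPM (log2 fold change 3.44, SE 0.47, edgeR adjusted p = 2.64e-05). Cdkn2a, which encodes the inhibitors p16INK4a and p19ARF, was at 0.388, 14.1, 1.36 and 0.337 CPM in tumors 1 to 4 and 0 to 1.301 CPM in ganglia (log2 fold change 5.36, edgeR adjusted p = 0.00446). Its level was high in tumor 2 alone, and without that tumor it did not pass (log2 fold change 2.81, edgeR adjusted p = 0.0724), while without wild-type ganglion 2 its log2 fold change was 6.99. Cdkn1c, an imprinted inhibitor, did not pass (log2 fold change −0.67, edgeR adjusted p = 0.172), and it was lower without tumor 1 (log2 fold change −1.36, edgeR adjusted p = 0.00431).

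The promoters of genes that moved together were read for short motifs, since the lists above differ in what they hold. RefSeq windows of 300 bases, from 250 before to 50 after a transcription start (GRCm38.p6), were found for 12404 of the 16665 genes tested and gave 15677 windows. Motifs were matched as exact strings on both strands, and none of the strings contains another. Windows of the mitosis list held the string TTTGAA, the core of the cell cycle homology region, in 19 of 27 (70.4%) and CCAAT in 22 of 27 (81.5%), against 12.3% and 37.2% of all windows. CCAAT did not mark the lists that rose. It was in 15 of 17 windows (88.2%) of the sterol synthesis list, which had no higher member. For the nucleolar ribosome list, in which all members were higher, it was in 11 of 41 (26.8%). Among all genes called, it was in 38.3% of windows of higher and 35.2% of lower genes. Windows of the replication list held an E2F string, TTTGGCGC or TTTCCCGC, in 12 of 41 (29.3%), against 2.5005% of all windows. The E-box CACGTG was in 10.7% of the windows of genes higher in tumors, in 7.96% of those of lower genes and in 9.22% of all. The median number of CG dinucleotides per window was 22, 17 and 18 in the same order. CACGTG and the E2F strings each hold a CG, and no share was adjusted for this. These shares are descriptions, and a match is not a binding site.

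The stretch of 250 bases before the start is shown for 2 core members of the mitosis list, the first in order of fold change to hold both strings, with the strings and their reverse complements in capitals. They were picked after their values were seen. Top2a (chr11:99024190-99024439, minus strand of GRCm38) and Mki67 (chr7:135716380-135716629, minus strand) read as follows.
Top2a: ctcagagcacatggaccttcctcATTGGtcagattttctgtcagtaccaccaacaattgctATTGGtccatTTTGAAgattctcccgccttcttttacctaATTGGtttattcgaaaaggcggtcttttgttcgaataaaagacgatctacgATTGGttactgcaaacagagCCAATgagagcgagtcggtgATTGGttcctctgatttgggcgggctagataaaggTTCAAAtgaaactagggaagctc
Mki67: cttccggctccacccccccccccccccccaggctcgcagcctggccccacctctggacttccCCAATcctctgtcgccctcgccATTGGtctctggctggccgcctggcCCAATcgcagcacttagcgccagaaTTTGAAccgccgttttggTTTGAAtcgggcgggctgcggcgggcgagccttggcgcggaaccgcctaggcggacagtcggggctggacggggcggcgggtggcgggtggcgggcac

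For growth and cell division genes that were higher in tumors and hold an E-box or E2F string, the same stretch is shown with those strings in capitals. They are core list members taken in order of fold change and were required to hold a string, so their matches are no evidence of a pattern. The same stretch of Ngfr and of Prph, both lower in tumors and picked without that requirement, held 0 matches and is not printed. Cdk4 (chr10:127063285-127063534, plus strand) has 4 copies of CACGTG. Cdc6, which loads the replicative helicase (chr11:98907901-98908150, plus strand; log2 fold change 4.74, and 5.44 without wild-type ganglion 2), Cdkn2a (chr4:89294620-89294869, minus strand) and Ncl, the nucleolar protein nucleolin (chr1:86359456-86359705, minus strand), have 1 E2F string each.
Cdk4: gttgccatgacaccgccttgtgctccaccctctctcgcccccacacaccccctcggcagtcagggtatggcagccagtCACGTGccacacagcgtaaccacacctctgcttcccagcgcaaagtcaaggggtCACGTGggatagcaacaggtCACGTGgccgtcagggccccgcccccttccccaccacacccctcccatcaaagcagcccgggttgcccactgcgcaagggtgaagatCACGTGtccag
Cdc6: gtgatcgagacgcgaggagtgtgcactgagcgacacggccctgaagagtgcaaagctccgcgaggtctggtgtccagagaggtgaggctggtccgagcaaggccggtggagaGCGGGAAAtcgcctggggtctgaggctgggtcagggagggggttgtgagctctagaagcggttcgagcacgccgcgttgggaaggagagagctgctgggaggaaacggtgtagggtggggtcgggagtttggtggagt
Cdkn2a: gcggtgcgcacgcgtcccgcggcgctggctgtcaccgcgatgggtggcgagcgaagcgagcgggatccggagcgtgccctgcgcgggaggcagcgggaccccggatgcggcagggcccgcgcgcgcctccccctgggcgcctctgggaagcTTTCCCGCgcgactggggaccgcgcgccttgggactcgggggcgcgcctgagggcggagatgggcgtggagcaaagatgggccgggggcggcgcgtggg
Ncl: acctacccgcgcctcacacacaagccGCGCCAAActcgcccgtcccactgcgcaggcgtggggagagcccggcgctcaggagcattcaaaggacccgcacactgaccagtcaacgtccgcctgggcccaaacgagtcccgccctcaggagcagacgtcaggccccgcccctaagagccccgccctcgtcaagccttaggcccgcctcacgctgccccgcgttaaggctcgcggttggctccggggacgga

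Transcripts of genes for ribosome production were higher nearly throughout. All 37 nucleolar genes of ribosome biogenesis rose, with a median of 1.94, and in 36 of them every tumor lay above every ganglion. Npm1, nucleophosmin, was at 922, 1495, 1368 and 1499 CPM in tumors and 169.5 to 390.0 (median 185) CPM in ganglia (log2 fold change 2.64, SE 0.27, edgeR adjusted p = 3.29e-06). Ncl was at 2493, 3702, 3376 and 3372 CPM against 534 to 860.0 (median 629) CPM (log2 fold change 2.32, SE 0.21, edgeR adjusted p = 1.54e-06), and tumor 1 was the lowest tumor for both. Fbl, which methylates ribosomal RNA, and Nop56, its partner, had log2 fold changes of 2.82 and 2.44. Of 81 cytoplasmic ribosomal protein genes 78 were higher and 1 lower, with a median of 1.42. Their summed level was 36920.1 to 43484 CPM in tumors and 9332 to 30163 CPM in ganglia, with wild-type ganglion 2 the highest ganglion and the next at 14980 CPM. These genes have many processed pseudogenes, so single values are uncertain. The lower member, Rpl3l, is a muscle paralog that was at 0 in all tumors and at most 0.935 CPM in a ganglion, and its call was lost in 3 of the 11 fits that left out 1 library.

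Among the most abundant higher genes per length were short or repeated noncoding RNAs. Rmrp, the RNA of RNase MRP, had 19132 TPM in ganglia and 46137 TPM in tumors as means, Rn45s 15480.2 and 36514 TPM, and the nucleolar RNAs Snord15b and Snord15a 7299.9 and 21276 TPM and 2432 and 16033 TPM. TPM divides by length and so gives high values to short RNAs: in CPM, Snord15a was at 28.7, 30.3, 27.3 and 26.1 in tumors and 0.481 to 4.24 (median 3.10) in ganglia. Rn45s was at 90175 to 134186 CPM in tumors and 20988 to 53922 CPM in ganglia (log2 fold change 1.66, SE 0.35, edgeR adjusted p = 0.000886). The fifth gene by this rule, Rplp2, encodes a protein of the ribosomal stalk (2853 and 6154 TPM).

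Supply of polyamines, nucleotides and one-carbon units was higher for 25 of 31 genes and lower for 2. Odc1, the first enzyme of polyamine synthesis and a textbook MYC target, was at 106, 219.5, 147 and 127 CPM in tumors and 23.9 to 45.5 (median 29.4) CPM in ganglia (log2 fold change 2.25, SE 0.29, edgeR adjusted p = 1.55e-05). Cad, which starts pyrimidine synthesis, was at 191, 424, 383 and 369 CPM against 40.7 to 83.8 (median 49.1) CPM (log2 fold change 2.68, SE 0.26, edgeR adjusted p = 2.42e-06). Rrm2, of ribonucleotide reductase, had a log2 fold change of 5.30, and 6.33 without wild-type ganglion 2. Serine and one-carbon genes did not move as one. Shmt2, the mitochondrial serine hydroxymethyltransferase, was at 29.0, 181, 132 and 116 CPM in tumors 1 to 4 and 23.2 to 55.8 (median 28.8) CPM in ganglia (log2 fold change 1.89, SE 0.35, edgeR adjusted p = 0.000322), so tumor 1 lay within the ganglia. Phgdh, the first enzyme of serine synthesis, was lower, at 9.12, 8.81, 7.71 and 3.48 CPM against 33.8 to 46.5 (median 42.1) CPM (log2 fold change −2.50, SE 0.32, edgeR adjusted p = 1.74e-05).

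Other metabolic lists went down or stayed mixed. None of 21 sterol synthesis genes rose and 17 fell, with a median of −1.07. Hmgcs1, which makes the precursor of mevalonate, was at 188, 116, 114 and 100.3 CPM in tumors and 232 to 665 (median 591) CPM in ganglia (log2 fold change −2.04, SE 0.28, edgeR adjusted p = 2.7e-05). Sqle, which forms squalene epoxide, was lower with a log2 fold change of −0.71. Of 26 genes of glycolysis and hypoxia 13 were lower and 4 higher. Aldoc, a brain aldolase, was at 0.730 to 4.70 CPM in tumors and 35.9 to 128 CPM in ganglia (log2 fold change −5.55, and −6.32 without tumor 1). Its paralog Aldoa was lower too. Ldha rose slightly (0.68) and Hk2 rose (1.34, a call lost in 1 of the 11 fits that left out 1 library), while Hk1, the paralog of Hk2, was lower. Vegfa did not pass (log2 fold change −0.03, edgeR adjusted p = 0.94), and the glucose transporter Slc2a1 was lower (−1.02). Of 77 respiratory chain subunits 10 were higher and 17 lower, with a median of −0.06 that equals the median of all genes to 2 decimals. The lower count was 10 without tumor 1, 11 without tumor 3 or wild-type ganglion 4, and 10 without Rn45s or against het ganglia only.

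Among chromatin regulators, 18 of 23 tested genes of Polycomb and DNA methylation were higher and 2 lower, with a median of 1.28. Ezh2, the histone methyltransferase of Polycomb, was at 150.3, 184, 157 and 184 CPM in tumors and 9.68 to 35.6 (median 13.99) CPM in ganglia (log2 fold change 3.39, SE 0.39, edgeR adjusted p = 7.16e-06). Its paralog Ezh1 went down, at 17.9, 9.72, 8.42 and 11.5 CPM against 54.5 to 61.8 (median 56.5) CPM (log2 fold change −2.29, SE 0.24, edgeR adjusted p = 3.59e-06). Dnmt1, which copies DNA methylation after replication, and Uhrf1, which guides it, had log2 fold changes of 2.85 and 4.87. Wild-type ganglion 2 was the highest ganglion for Ezh2, Dnmt1 and Uhrf1, and without it the log2 fold change of Uhrf1 was 5.84.

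Runx1t1, a corepressor of the ETO family and the gene under study in this series, was 13.4-fold higher in tumors (log2 fold change 3.75, SE 0.43, edgeR adjusted p = 7.18e-06). The range was 123 to 227 CPM in tumors and 8.47 to 18.2 CPM in ganglia, with the 3 het ganglia at 13.3, 13.1 and 18.2 CPM, and the 4 wild-type ganglia at 8.47, 10.8, 13.1 and 12.2 CPM. In the list of ETO proteins and the LSD1-CoREST-HDAC complex 10 of 17 were higher and 2 lower (1 lower without tumor 1 or tumor 3). Kdm1a, the histone demethylase LSD1, was at 154, 168, 166 and 195 CPM against 66.1 to 115 (median 85.1) CPM (log2 fold change 0.98, SE 0.21, edgeR adjusted p = 0.000922). Of the CoREST scaffolds, Rcor2 was at 85.1, 147, 157 and 149 CPM in tumors and 3.03 to 11.6 (median 8.15) CPM in ganglia (log2 fold change 4.00, SE 0.43, edgeR adjusted p = 4.03e-06), whereas Rcor3 was at 23.0, 21.6, 20.7 and 22.04 CPM against 22.8 to 38.7 (median 35.9) CPM (log2 fold change −0.66, SE 0.15, edgeR adjusted p = 0.00209). Cbfa2t3, another ETO family member, was lower (3.18 to 12.7 against 11.9 to 61.1 CPM, edgeR adjusted p = 0.0212), and this call was lost in 2 of the 11 fits that left out 1 library. Its log2 fold change was −1.56, and −1.12 without wild-type ganglion 2 (edgeR adjusted p = 0.0423).

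Mouse Mycn was lower in tumors than in ganglia, with 49.7, 12.4, 15.7 and 12.7 CPM in tumors 1 to 4 and 28.4 to 67.7 (median 50.7) CPM in ganglia (log2 fold change −1.16, SE 0.37, edgeR adjusted p = 0.0144). Tumor 1 lay within the ganglia, and without it the log2 fold change was −1.90. How reads of the human transgene were assigned is not known from the table. Myc was lower too, at 4.78, 4.74, 2.46 and 2.25 CPM against 14.2 to 46.0 (median 15.6) CPM (log2 fold change −2.45, SE 0.37, edgeR adjusted p = 6.77e-05). Max, the partner of MYC proteins, was at 69.5, 69.4, 65.8 and 64.5 CPM in tumors and 38.2 to 47.2 (median 42.2) CPM in ganglia (log2 fold change 0.68, SE 0.10, edgeR adjusted p = 5.8e-05), a small rise in which no tumor overlapped a ganglion. Mxd3, a Max partner found in S phase, was at 30.4, 44.5, 32.2 and 38.2 CPM against 0.494 to 3.21 (median 1.92) CPM (log2 fold change 4.38, SE 0.53, edgeR adjusted p = 1.03e-05). Of the 13 genes of this network, 7 were higher and 3 lower.

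Genes of the p53 pathway and cell death were split, 11 of 27 higher and 8 lower, with a median of 0.05. Trp53 was at 62.3, 68.9, 72.3 and 78.7 CPM in tumors and 15.9 to 63.1 (median 20.03) CPM in ganglia (log2 fold change 1.54, SE 0.30, edgeR adjusted p = 0.000546), and the ganglion that overlapped the tumors was again wild-type ganglion 2, at 63.1 CPM. Without that ganglion the log2 fold change of Trp53 was 1.92. Bcl2, a survival factor of neurons, was at 21.2, 15.8, 11.1 and 11.8 CPM against 98.7 to 125 (median 112) CPM (log2 fold change −2.92, SE 0.19, edgeR adjusted p = 2.23e-07), with no overlap. For surface molecules studied as neuroblastoma targets, Gpc2 (glypican 2) was at 72.4, 30.7, 39.4 and 46.7 CPM against 4.77 to 19.5 (median 10.2) CPM (log2 fold change 2.11, SE 0.41, edgeR adjusted p = 0.00052) and Cd276 (B7-H3) at 82.1, 52.3, 47.9 and 59.5 CPM against 15.2 to 38.4 (median 30.4) CPM (log2 fold change 1.04, SE 0.20, edgeR adjusted p = 0.000434). B4galnt1, an enzyme of GD2 ganglioside synthesis, was at 43.4 to 54.0 CPM in tumors and 31.2 to 138 CPM in ganglia and did not pass (edgeR adjusted p = 0.311). In all, 5 of these 15 surface and ganglioside genes were higher (Dlk1, Alk, Gpc2, Cd276 and St8sia1) and 5 lower (Slc6a2, Chl1, Cxcr4, L1cam and Epha2).

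Antigen presentation through MHC class I was lower for 9 of 15 genes and higher for none. Tap1, the peptide transporter, was at 1.86, 11.7, 4.39 and 2.56 CPM in tumors and 10.3 to 150.3 (median 13.97) CPM in ganglia (log2 fold change −2.40, edgeR adjusted p = 0.0121). Wild-type ganglion 2 had 4601 CPM of these genes in sum, the highest of the 7 ganglia. Without that library the log2 fold change of Tap1 was −1.42 (edgeR adjusted p = 0.0164) and that of H2-D1 went from −1.53 to −0.77 (adjusted p = 0.0309), and 9 genes passed as lower. Without tumor 2 the log2 fold change of Tap1 was −3.20. H2-D1 lost its call without tumor 1 (edgeR adjusted p = 0.0728) and without tumor 4 (0.0761), and when only the 11 libraries were fitted as 2 groups (0.0514). Against het ganglia only 5 of the 15 were lower, and neither Tap1 (log2 fold change −1.24, edgeR adjusted p = 0.211) nor H2-D1 (−0.87, adjusted p = 0.262) passed. H2-K1 and B2m did not pass with all libraries (edgeR adjusted p = 0.201 and 0.113). H2 genes are close copies of each other, so reads may be split between them.

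Ganglia hold more than neurons, and markers of other cells moved as well. Of 22 genes of satellite glia and Schwann cells 18 were lower and none higher, with a median of −4.69. Sox10, the defining transcription factor of these glia, was at 4.15, 1.95, 0.999 and 3.06 CPM in tumors and 64.7 to 196 (median 126) CPM in ganglia (log2 fold change −5.64, SE 0.50, edgeR adjusted p = 1.31e-06). Fabp7 was at 1.16, 2.57, 0.571 and 1.01 CPM against 67.9 to 203 (median 188) CPM (log2 fold change −6.93, SE 0.55, edgeR adjusted p = 6.62e-07) and S100b at 0.107 to 0.282 CPM against 4.51 to 13.9 CPM. The summed level of the list was 772 to 2523 CPM in tumors and 2844 to 5307 CPM in ganglia. Apoe, which macrophages also make, was at 548 to 2309 CPM of that sum in tumors and did not pass (edgeR adjusted p = 0.0525). What part these cells have in the other differences was not tested.

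**Figure D3:**
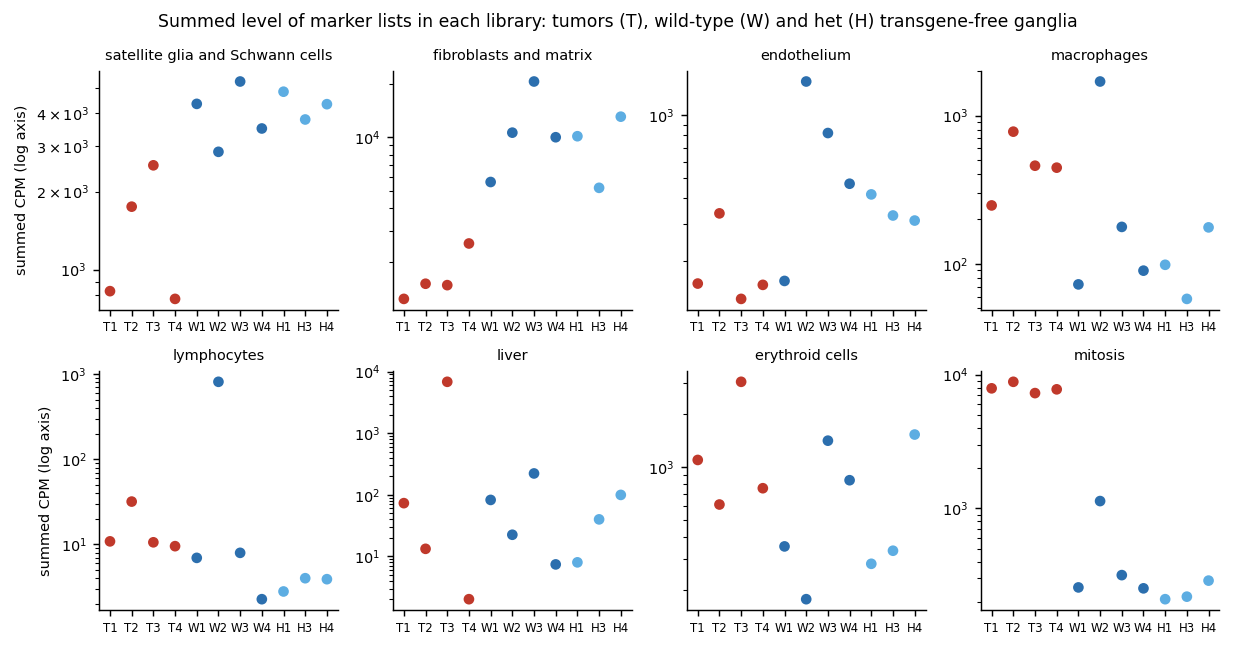
Summed CPM (log axis) of the markers of 7 cell types and of mitosis genes in each of 4 tumors (T), 4 wild-type ganglia (W) and 3 het ganglia (H), numbered by replicate. W2 stands out for lymphocytes (814 CPM) and T3 for liver (6813 CPM), and the 4 tumors are above all ganglia for mitosis.

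Fibroblast and matrix genes were lower in 16 of 21 and higher in 1. Col1a1, a chain of type I collagen, was at 156, 131, 134 and 394 CPM in tumors and 720.3 to 4034 (median 1886) CPM in ganglia (log2 fold change −3.27, SE 0.54, edgeR adjusted p = 0.000127). Pdgfra and Dcn, markers of fibroblasts, had log2 fold changes of −4.01 and −3.42. Fbln1, a matrix glycoprotein, was the exception at 143, 129.6, 103 and 109 CPM against 3.37 to 32.3 (median 11.6) CPM (log2 fold change 3.18, SE 0.60, edgeR adjusted p = 0.000373). Of 16 endothelial genes 8 were lower and 1 higher. Pecam1 and Cdh5, which define endothelium, were at 14.7 to 46.0 and 24.9 to 50.1 CPM in tumors and 20.3 to 279 and 21.3 to 220.3 CPM in ganglia (edgeR adjusted p = 0.0217 and 0.0282). Without wild-type ganglion 2 their log2 fold changes were −1.20 (edgeR adjusted p = 0.0484) and −1.31 (adjusted p = 0.0559), and each call was lost in 3 of the 11 and 5 of the 11 fits, respectively, that left out 1 library. Esm1, a gene of endothelial tip cells, was higher, at 3.53, 9.49, 5.32 and 9.27 CPM against 0.176 to 1.91 (median 0.400) CPM (log2 fold change 3.84, SE 0.55, edgeR adjusted p = 4.18e-05; 4.48 without wild-type ganglion 2).

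Macrophage markers were higher for 6 of 16 genes (37.5%, against 30.6% of all genes tested). They were lower for 1, Cd163, whose call was lost in 3 of the 11 fits that left out 1 library. Against wild-type ganglia only, 3 were higher and 2 lower, and C1qa, given next, did not pass (log2 fold change 1.33, edgeR adjusted p = 0.111). Without wild-type ganglion 2, which had more of these markers than any tumor, 11 were higher. C1qa, a complement gene of tissue macrophages, was at 19.8, 62.1, 33.0 and 29.9 CPM in tumors and 1.86 to 40.0 (median 5.29) CPM in ganglia (log2 fold change 1.92, edgeR adjusted p = 0.0108; 2.67 and 0.000131 without that ganglion). Csf1r passed only without it (log2 fold change 1.09, edgeR adjusted p = 0.00951, against 0.26 and 0.71 with it), and Adgre1 was at 4.81 to 17.2 CPM and 3.63 to 18.5 CPM. Lymphocyte markers summed to 9.55 to 31.9 CPM in tumors, against 2.27 to 7.97 CPM in the 6 ganglia other than wild-type ganglion 2. Cd79a, of B cells, passed as lower (edgeR adjusted p = 0.0334) and not without wild-type ganglion 2 (0.311), where it was at 110.2 CPM. Rag1, the recombinase of immature lymphocytes, was higher in tumors, at 4.93, 15.6, 3.53 and 3.71 CPM against 0 to 0.423 CPM in ganglia (log2 fold change 5.52, SE 1.03, edgeR adjusted p = 0.000371; 4.75 without tumor 2 and 6.78 without wild-type ganglion 3), while Cd3e was at most 0.311 CPM in a tumor.

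Of 8 liver genes 7 passed as higher with all libraries and none without tumor 3, and with all libraries kept none passed in DESeq2 or with the replicate number as a block. Against wild-type ganglia only 3 passed, and against het ganglia only 1. Alb (albumin) was at 26.5, 4.74, 2512 and 0.646 CPM in tumors 1 to 4 and 1.36 to 107 CPM in ganglia, and Apoa1, an apolipoprotein, was at 11.5, 1.92, 1039 and 0.337 CPM. Fgb, a chain of fibrinogen, was at 579 CPM in tumor 3 and at most 4.04 CPM in another tumor, and Apob at 1072 and at most 8.23 CPM. Adrenal cortex genes were lower in 5 of 7, from low levels: Cyp11a1, the first enzyme of steroid synthesis, was at 0.347 to 8.22 CPM in ganglia and at 0.393 CPM or less in tumors. Star did not pass. No erythroid gene passed (edgeR, 6 tested, of which 3 passed as higher with the replicate number as a block; Hba-a1 at 537 to 2713 CPM and 136 to 1269 CPM). Fat and skeletal muscle genes were lower in 6 of 9, but in 2 without tumor 3 and in 3 without tumor 1, tumor 2, het ganglion 3 or het ganglion 4. Of 14 immediate early genes 5 were lower and 2 higher. Leaving out any tumor, wild-type ganglion 2 or 3, or het ganglion 4 left 3 lower, and leaving out tumor 1 or 4 or any het ganglion left 1 higher. Fos did not pass (edgeR adjusted p = 0.444) while Egr1 passed at 0.0416 and lost its call in 8 of the 11 fits that left out 1 library. The 5 sex-linked genes did not pass, and Xist was high in tumor 4 alone (1128 CPM) among tumors.

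The 4 tumors were not alike. Tumor 1 had more of several neuronal and progenitor genes, such as Nefm, Cartpt, Slc6a2 and Pou3f3 above, and less Peg10 and Shmt2. Its summed immature neural factors were at 1177 CPM, against 432.9 to 589.7 CPM in the other tumors. Tumor 2 had the most Cdkn2a and, of bHLH factors, Ascl2 (0.621, 11.9, 3.18 and 2.70 CPM in tumors 1 to 4). Tumor 4 had the most Tbr1 and Phox2a. Each of these rests on a single library and was not tested.

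Gene position gave a further contrast. For each chromosome the median log2 ratio of its genes to the ganglion mean was taken in each library. The ratios were centred on their median over the autosomes, and each ganglion was set against the mean of the other ganglia. On chromosome 3 (681 genes) the value was 0.214 in tumor 4, against −0.0488 to −0.0191 in the other tumors and −0.0226 to 0.0329 in ganglia. When the minimum mean level was raised to 5 TPM, it was 0.322 in tumor 4. On chromosome 1 (821 genes) all tumors were low, at −0.125 to −0.0695, and the ganglia were at −0.0277 to 0.0146. Tumors and ganglia did not overlap on chromosomes 5, 6, 7 and 11 either. The tumors were there at 0.0489 to 0.104, −0.0970 to −0.0313, 0.0125 to 0.0646 and −0.0554 to −0.0307. The nearest ganglion was at 0.0295, −0.0257, 0.0102 and −0.0295 in the same order. On chromosome 11 the gap was small and depended on the settings. At a minimum mean level of 5 TPM the tumors were at −0.0418 to −0.0020 there and the lowest ganglion at −0.0344. With a smaller constant added before the log they overlapped as well. On chromosome 13 the tumors were at 0.126 to 0.156, but wild-type ganglion 2 was at 0.110, near them, and the lowest ganglion was at −0.0431. DNA copy number was not measured.

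**Figure D4:**
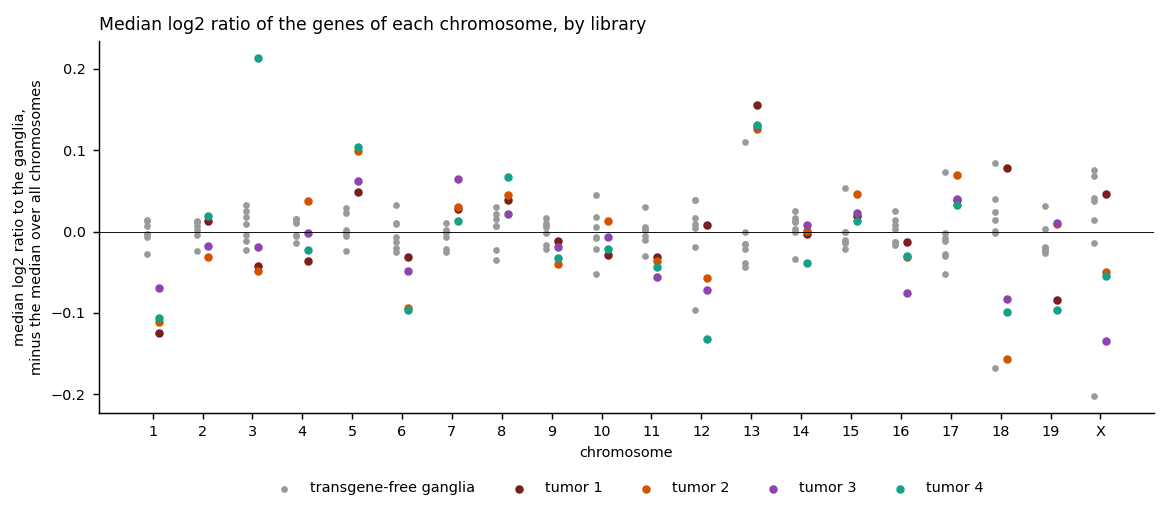
Median log2 ratio of the genes of each chromosome to the mean of the ganglia, minus the median over the autosomes (y axis), by chromosome (x axis). Colored points are tumors and gray points are transgene-free ganglia, each ganglion set against the mean of the other ganglia. Tumor 4 stands at 0.214 on chromosome 3, away from the 10 other libraries.

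Calls also varied with the length of the gene in the genome. Of 15118 protein-coding genes with a position, 31.3% were higher and 32.0% lower in tumors. Among genes that span under 5 kb, 32.8% were higher and 25.8% lower, and among those over 200 kb 18.7% were higher and 47.6% lower. The median log2 fold change went from 0.04 in the shortest class to −0.69 in the longest.

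**Figure D5:**
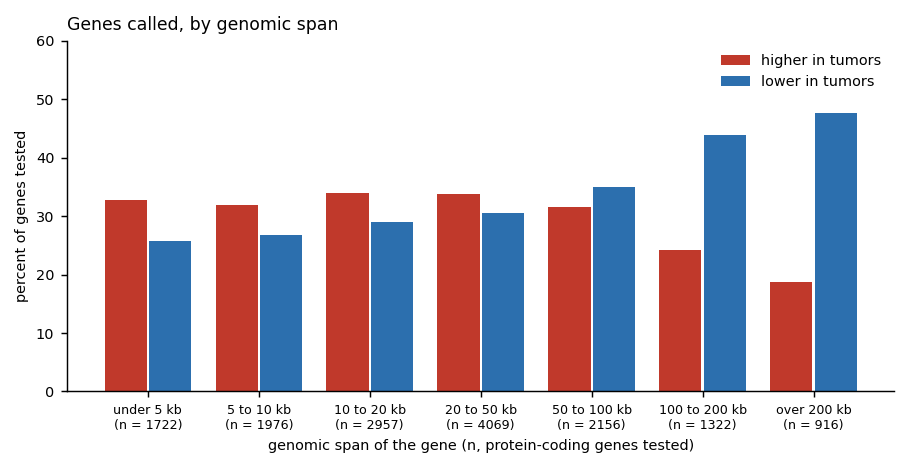
Percent of protein-coding genes called higher (red) or lower (blue) in tumors (y axis), by the genomic span of the gene (x axis, with the number tested). The lower share rises from 25.8% under 5 kb to 47.6% over 200 kb, while the higher share goes from 32.8% to 18.7%.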

How the data were processed

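RNA-Seq was done on mouse tumors and celiac ganglia with a stranded total RNA kit, although the labels name polyA RNA. The authors used STAR, SAMtools and RSEM with mm10 and deposited RSEM expected counts and TPM values per gene. The expected counts were rounded, and genes were filtered with filterByExpr (16665 of 24411 tested), scaled by TMM and tested with edgeR 4.0.16 in R 4.3.3 (quasi-likelihood F test, 5 groups, all 16 libraries), as the tumors minus the mean of the 7 transgene-free ganglia, with Benjamini-Hochberg adjustment at 0.05. CPM used TMM library sizes. DESeq2 1.42.0 and the other settings were alternatives, and the test was checked on simulated counts. Named genes were the 15 largest changes each way that had no overlap and reached 5 TPM on average, core list members and the top member each way, the 5 most abundant called genes each way, and the 5 genes most variable among tumors (averaging 20 TPM or more). Members and lists were chosen with earlier results of these data known. The header "Hom" was read as wild-type Runx1t1. Intervals were not computed, and whether counting used strand is not given in the sources used here. Results on some genes of the lists are not reported here.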

Additional observations from a re-analysis of the deposited data

Results flagged for a closer look

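Among the named genes, 61 of 305 sets of values (a gene in the 4 tumors or in the 7 ganglia) held a library farther from the others than Dixon's 95% limit allows. A rate of about 1 in 20 holds only for normally distributed values in sets not chosen by their spread. The named genes include those picked as most variable among tumors, and some flagged sets have counts in 1 library alone. The 61 of 305 therefore cannot be compared with that rate, and whether they exceed chance was not tested. Of the 61, 29 had wild-type ganglion 2 as the highest ganglion and 10 had it as the lowest. Genes of a single library share that library, so these are not separate pieces of evidence, and the cause was not tested.

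Wild-type ganglion 2 was high for genes of cell division and its control, Aurka (6.59 CPM, others 1.45 to 2.24), Ccnb1 (12.6 CPM, others 0.901 to 2.01), Cdk4 (46.1 CPM, others 19.8 to 26.8), Cdkn2a (1.301 CPM, others 0 to 0.240), Dnmt1 (176 CPM, others 77.9 to 89.0), Mcm2 (49.7 CPM, others 9.81 to 14.6), Mki67 (368 CPM, others 28.5 to 64.5), Myc (46.0 CPM, others 14.2 to 16.9), Pcna (45.6 CPM, others 16.3 to 21.5), Plk1 (11.1 CPM, others 0.881 to 3.11), Rrm2 (24.3 CPM, others 1.86 to 2.67), Top2a (120.4 CPM, others 11.7 to 26.0), Trp53 (63.1 CPM, others 15.9 to 21.2) and Uhrf1 (53.3 CPM, others 2.88 to 7.31). It was high for immune and antigen presentation genes, B2m (398 CPM, others 40.0 to 71.4), Cd5l (1.73 CPM, others 0 to 0.501), Cd79a (110.2 CPM, others 0.240 to 0.917), Csf1r (162 CPM, others 11.4 to 31.5), H2-D1 (914 CPM, others 79.6 to 183), H2-K1 (1023 CPM, others 37.4 to 80.0) and Tap1 (150.3 CPM, others 10.3 to 20.4). It was also high for B4galnt1 (138 CPM, others 31.2 to 58.2), Cad (83.8 CPM, others 40.7 to 54.2), Cbfa2t3 (61.1 CPM, others 11.9 to 24.2), Esm1 (1.91 CPM, others 0.176 to 0.443), Fbl (51.9 CPM, others 17.3 to 22.1), Neurod6 (0.260 CPM, others 0), Npm1 (390.0 CPM, others 169.5 to 192) and Shmt2 (55.8 CPM, others 23.2 to 29.7). It was low for Cd276 (15.2 CPM, others 30.3 to 38.4), Chgb (239 CPM, others 501 to 860.5), Fabp7 (67.9 CPM, others 129 to 203), Hmgcs1 (232 CPM, others 467 to 665), Ngfr (515 CPM, others 1268 to 2503), Peg10 (19.4 CPM, others 30.99 to 43.9), Rcor2 (3.03 CPM, others 7.58 to 11.6), Rcor3 (22.8 CPM, others 33.6 to 38.7), Snap25 (316 CPM, others 477 to 606) and Sncg (438 CPM, others 815 to 951).

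Tumor 1 was the highest tumor for Cdkn1c (29.9 CPM, others 8.05 to 9.15), Hcrtr1 (0.0388 CPM, others 0) and Mycn (49.7 CPM, others 12.4 to 15.7). Tumor 1 was the lowest tumor for Lin28b (25.1 CPM, others 44.1 to 46.1), Nefh (194 CPM, others 277 to 286), Peg10 (252 CPM, others 9909 to 11613) and Rcor2 (85.1 CPM, others 147 to 157). Tumor 2 was the highest tumor for Cdh5 (50.1 CPM, others 24.9 to 25.1), Igf2bp1 (0.0282 CPM, others 0), Pecam1 (46.0 CPM, others 14.7 to 15.5), Rxfp1 (0.0282 CPM, others 0) and Vwc2l (0.0282 CPM, others 0). Tumor 3 was the highest tumor for Cyp11a1 (0.393 CPM, others 0). Tumor 4 was the highest tumor for Col1a1 (394 CPM, others 131 to 156), Phox2a (194 CPM, others 42.4 to 45.5), Tbr1 (71.1 CPM, others 0.250 to 0.876) and Xist (1128 CPM, others 0.452 to 0.971). Wild-type ganglion 3 was the highest ganglion for Xlr3c (0.388 CPM, others 0 to 0.0291). Het ganglion 1 was the highest ganglion for Emx2 (0.400 CPM, others 0 to 0.0353) and Neurod1 (0.0801 CPM, others 0 to 0.0291). Het ganglion 3 was the highest ganglion for Gm6880 (0.0291 CPM, others 0). Het ganglion 4 was the highest ganglion for Cdc20b (0.200 CPM, others 0). Values under the floor of 3 counts, such as those of Hcrtr1, Igf2bp1, Rxfp1 and Vwc2l in tumors, rest on a count or so in 1 library.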

How the results depend on the processing

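Over 24 alternatives, 3524 of 3678 recomputed log2 fold changes of 156 named genes kept their direction and their side of the threshold, 117 lost their call, 10 gained one and 27 changed sign. Of these genes, 107 kept both in every alternative run. Of 1728 recomputed counts of list members, 1584 were within 1.5 times of the reported count. The number of genes called was 4728 (2050 higher and 2678 lower) when tested against a log2 fold change of 1, and the other alternatives were within 1.5 times of 10300. Leaving out 1 library gave 9551 to 10755 genes called, 4674 to 5520 higher and 4823 to 5235 lower. Between het and wild-type ganglia 5 genes passed with DESeq2 and 0 in every edgeR alternative run. Deviations from the group means of same-numbered libraries correlated at 0.148 to 0.319 between tumors and wild-type ganglia (4 pairs) and at −0.14 to 0.0119 between tumors and het ganglia (3 pairs). Not every pair was over 0.1, so the fit without the block was kept. As a hint from the data, 4 of 4 tumors and 3 of 4 wild-type ganglia correlated best with their own number, against 0 of 3 in the het pairs. With the replicate number as a block 10013 genes passed (4860 higher and 5153 lower), 3 erythroid genes passed as higher in place of 0 (Hba-a1 at 1.47, edgeR adjusted p = 0.0446), liver genes 0 in place of 7, and Vegfa was at 0.010, not called.

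Sign changes in log2 fold change, other than on leaving out 1 library, were as follows. Against wild-type ganglia only, Csf1r was at −0.46. Against het ganglia only, H2-K1 was at 0.064, Hmga2 at −0.94 and Vegfa at 0.040. Vegfa was at 0.040 without Rn45s, and B4galnt1 was at 0.014 in libraries over 20000000 counts. Without wild-type ganglion 2 and tumor 3 together, an alternative chosen after seeing the data, Alb was at −1.66, Apoa1 at −1.16, Apob at −0.69 and Hmga2 at −0.39. The chromosome 3 median of tumor 3 was 0.0328 when the minimum mean level was 5 TPM. The cause of these was not tested. Leaving out 1 library, the log2 fold change ranged from −0.13 to 0.74 for Adgre1, −1.53 to 5.09 for Alb, −1.001 to 5.57 for Apoa1, −0.52 to 6.37 for Apob, −0.17 to 1.09 for Csf1r, −1.50 to 0.13 for H2-K1, −0.36 to 0.55 for Hmga2, −0.17 to 0.067 for Vegfa and −9.17 to 0.039 for Xist, each of which changed sign in at least 1 such fit. Depth limits genes at the floor of 3 counts, for which only bounds are given.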
